A study of Mus musculus with 44 samples.

Results

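SMAD3 chromatin occupancy in unstimulated mouse granulosa cells was measured in 2 ways: with an antibody to native SMAD3 in SMAD2-HA/+ cells, and with an antibody to the PA epitope in SMAD3-PA/PA cells, whose SMAD3 carries that tag. The members here are the 4 vehicle-treated libraries of these measurements, 2 per antibody, out of 44 samples in the series, chosen by their labels. Peaks of the 2 replicates that overlapped by at least 1 bp were joined, and a joined interval with a peak of both replicates is called a region. This gave 32423 native SMAD3 regions and 4319 PA regions on chromosomes 1 to 19, X and Y.

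The study followed the response of primary granulosa cells to GDF9, with vehicle as its control and a treatment time of 4 h. Cells came from the ovaries of PMSG-primed female mice aged 3 to 4 weeks on a mixed C57BL/6J and 129S5/SvEvBrd background, pooled across animals and cultured before treatment. SMAD2-HA/+ cells carry 1 allele of SMAD2 with an HA epitope at its C terminus and an untagged SMAD3, whereas SMAD3-PA/PA cells carry the PA epitope at the N terminus of SMAD3 on both alleles. Binding was profiled by CUT&RUN, in which an antibody tethers a nuclease to chromatin and the released fragments are sequenced. Antibody, epitope tag and mouse line differ together in every comparison between the 2 measurements, so their parts cannot be told apart. The source of the native SMAD3 antibody is not given in the sources used here, and the use of IgG libraries in peak calling is not stated either. The study's methods speak of pooled biological replicates of cells from several mice, but the labels do not tie a replicate number to a culture or animals, so part of the spread between replicates may be technical.

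SMAD3 is a receptor-regulated transcription factor. After activin, TGF-beta or GDF9 binds its receptors, SMAD3 is phosphorylated, joins SMAD4 and enters the nucleus, where its MH1 domain contacts the short SMAD box CAGAC. Granulosa cells, the somatic cells around the oocyte, use this pathway for follicle growth and cumulus expansion. In RNA of the SMAD3-PA/PA vehicle cells 14 of 17 granulosa cell markers reached 10 normalized counts in the mean of 2 libraries, with a list median of 989 and 930 normalized counts. The markers that did not were Amh (anti-Mullerian hormone, a defining granulosa product) at 1.15 and 0.886, Cyp19a1 (aromatase) at 2.30 and 1.77, and Nr0b1 at 0 and 0. Of 25 markers of other ovarian cells, 13 reached that level, the list median was 10.3 and 12.4, the summed level was 12617 and 13335 against 34577 and 35766 for the granulosa list, and 3 markers (Insl3 of theca cells, Adgre1 of macrophages and Zp1 of oocytes) were at 0. The highest of that list were Acta2, the smooth muscle actin, at 8847 and 9287, and the epithelial keratins Krt8 at 2005 and 2107 and Krt18 at 1158 and 1210. What part these cells had in the binding values was not tested.

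Sequences of regions found with both antibodies, with native SMAD3 alone and with PA alone are shown first as examples. They are read from the plus strand of GRCm38 (mm10). The windows were not all chosen by the same rule, so their SMAD boxes cannot be compared between the 3 kinds. Among regions with under 50% soft-masked bases, those with the highest signal in both measurements were the intron of Chl1, a cell adhesion gene (window at chr6:103649061-103649210), an intergenic region beside the predicted gene Gm10801 (chr2:98665026-98665175) and an intergenic region near Pak3 (chrX:143482993-143483142). These 3 regions hold no SMAD box, and their central 150 bases are given. Capitals mark the CENP-B box, the element of mouse minor satellite that centromere protein B recognises, which the window near Pak3 lacks.

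Chl1 intron, both antibodies: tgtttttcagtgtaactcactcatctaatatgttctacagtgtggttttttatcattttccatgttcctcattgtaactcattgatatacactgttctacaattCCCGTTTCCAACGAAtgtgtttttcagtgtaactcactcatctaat
Gm10801 side, both antibodies: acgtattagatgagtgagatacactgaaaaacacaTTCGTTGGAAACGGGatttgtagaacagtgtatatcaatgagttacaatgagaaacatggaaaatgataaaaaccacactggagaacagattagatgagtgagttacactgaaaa
Pak3 side, both antibodies: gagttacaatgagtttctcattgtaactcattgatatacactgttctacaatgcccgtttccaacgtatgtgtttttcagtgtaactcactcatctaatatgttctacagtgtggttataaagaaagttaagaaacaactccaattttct

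These 3 windows share long stretches. The Chl1 and Pak3 windows have 47 bases in a row in common, the Gm10801 and Pak3 windows 39 and the Chl1 and Gm10801 windows 35, counting either strand. No other pair of the 13 windows read shares more than 11.

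The 3 strongest native SMAD3 regions with no PA peak and under 50% soft-masked bases lay at Hmgb2, Arrdc3 and Usp22. Shown are windows from the Arrdc3 region (an arrestin-domain gene; chr13:80882888-80883037, upstream of the gene), from an intron of Usp22 (a deubiquitinase; chr11:61174205-61174354) and from the native region upstream of Tnfaip6 (the hyaluronan cross-linking protein of the expanding cumulus; chr2:52037623-52037772). In each region the window outside UTRs with most SMAD boxes was taken, and capitals mark CAGAC or its reverse complement.

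Arrdc3, native only: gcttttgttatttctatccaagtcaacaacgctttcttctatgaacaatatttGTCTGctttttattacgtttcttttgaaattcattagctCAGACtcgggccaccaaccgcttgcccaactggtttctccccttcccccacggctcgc
Usp22, native only: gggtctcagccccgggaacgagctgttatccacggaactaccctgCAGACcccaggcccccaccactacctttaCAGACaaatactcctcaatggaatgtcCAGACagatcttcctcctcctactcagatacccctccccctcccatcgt
Tnfaip6, native only: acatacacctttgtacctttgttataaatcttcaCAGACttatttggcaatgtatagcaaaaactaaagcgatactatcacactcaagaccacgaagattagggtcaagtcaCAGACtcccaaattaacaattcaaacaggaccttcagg

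The Arrdc3 region had 283 and 371 native fragments at its summit, the Usp22 region 283 and 338, and the Hmgb2 region 492 and 609. The 3 strongest PA regions with no native peak and under 50% soft-masked bases all fell between 14 and 16 Mb of chromosome 5. The first of them is shown from chr5:14971743-14971892, between genes, with SMAD boxes in capitals.

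Chromosome 5, PA only: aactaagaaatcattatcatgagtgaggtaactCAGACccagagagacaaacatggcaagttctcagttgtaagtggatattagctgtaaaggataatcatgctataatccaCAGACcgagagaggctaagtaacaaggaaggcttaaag

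It had 35 and 36 PA fragments, and 71.4% of its words of 31 bases occur more than once in the genome. The deepest shared region free of repeated words lay 14767 bp from Dpy19l2 on chromosome 9, with 3120 and 857 PA fragments and 3284 and 3318 native fragments. Its window at chr9:24541860-24542009 holds a pair of SMAD boxes, in capitals. The region also holds 1 CENP-B box, which lies outside this window.

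Dpy19l2 side, both antibodies: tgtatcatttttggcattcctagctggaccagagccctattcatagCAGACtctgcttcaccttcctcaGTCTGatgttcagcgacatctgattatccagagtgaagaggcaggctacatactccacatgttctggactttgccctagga

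The 4 libraries separated in depth, width and position by measurement, in which antibody and mouse line differ together. Each maximum signal was a whole multiple of a fixed step within 0.05 of a step, for 100% of the values below 200 steps, so it could be read as the number of fragments that overlap at the summit of a peak. The median summit held 13 and 15 fragments in the native SMAD3 libraries and 5 and 5 in the PA libraries. The weakest peak held 5 fragments in either native list and 2 in either PA list, so a typical PA peak had as many fragments as the smallest native peak. The median peak was 1459 and 1588 bp wide for native SMAD3 and 630 and 559 bp for PA. Other lists differed between the lines in the same direction. SMAD2 summits held 11 and 11 fragments in SMAD2-HA/+ cells, with peaks of 1691 and 1687 bp. In SMAD3-PA/PA cells they held 5 and 3, with 676 and 243 bp. SMAD4, in SMAD3-PA/PA cells only, had 5 and 4 fragments and 824 and 724 bp. H3K27ac had 124 and 128 fragments in SMAD2-HA/+ and 12 and 13 in SMAD3-PA/PA cells. The part of the line was not tested. The number of peaks overlapped between the groups, with 68414 and 65194 for native SMAD3 and 82459 and 60165 for PA (exact permutation p = 1). For width, depth, recurrence, promoters and H3K27ac the 2 groups did not overlap, and for each the exact two-sided permutation test over libraries gave p = 0.333, which is the smallest value that 2 against 2 libraries allow.

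Replicates recurred far more often in the native SMAD3 lists than in the PA lists. In the native lists 50.3% and 51.7% of peaks met a peak of the other replicate, against 8.47% and 8.86% for the same peaks placed at random on their chromosomes. In the PA lists 5.52% and 8.01% did, against 2.90% and 3.95% when shuffled. For the SMAD2 antibody the share was 32.7% and 33.3% in SMAD2-HA/+ cells and 2.22% and 8.94% in SMAD3-PA/PA cells. For SMAD4 in SMAD3-PA/PA cells it was 17.4% and 19.5%. Antibody and line were not told apart here either. The native SMAD3 peaks made 32423 regions with a median width of 2144 bp. The PA peaks made 4319 regions of 939 bp, a difference of 1205 bp. That difference was 649 bp with the peaks of native replicate 2 alone and 520 bp with those of native replicate 1 alone.

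Position relative to genes and active chromatin differed as well. H3K27ac marks active promoters and enhancers. Of the native peaks 49.6% and 52.3% lay on H3K27ac of the same line, against 19.8% and 20.01% when shuffled. Of the PA peaks 2.17% and 3.97% lay on H3K27ac of their line, below the 4.95% and 5.36% of shuffled peaks. The H3K27ac regions of the SMAD2-HA/+ cells covered 498 Mb and those of the SMAD3-PA/PA cells 127 Mb. On the narrower set of the SMAD3-PA/PA cells, native peaks still reached 32.8% and 34.8%, against 6.22% and 6.41% when shuffled. Within 3 kb of a transcription start lay 34.5% and 35.3% of native peaks, with 18.7% and 19.1% when shuffled. PA replicates fell on opposite sides of their shuffled level here, with 13.0% in replicate 1 against 16.1% shuffled and 19.8% in replicate 2 against 16.7% shuffled.

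**Figure D1:**
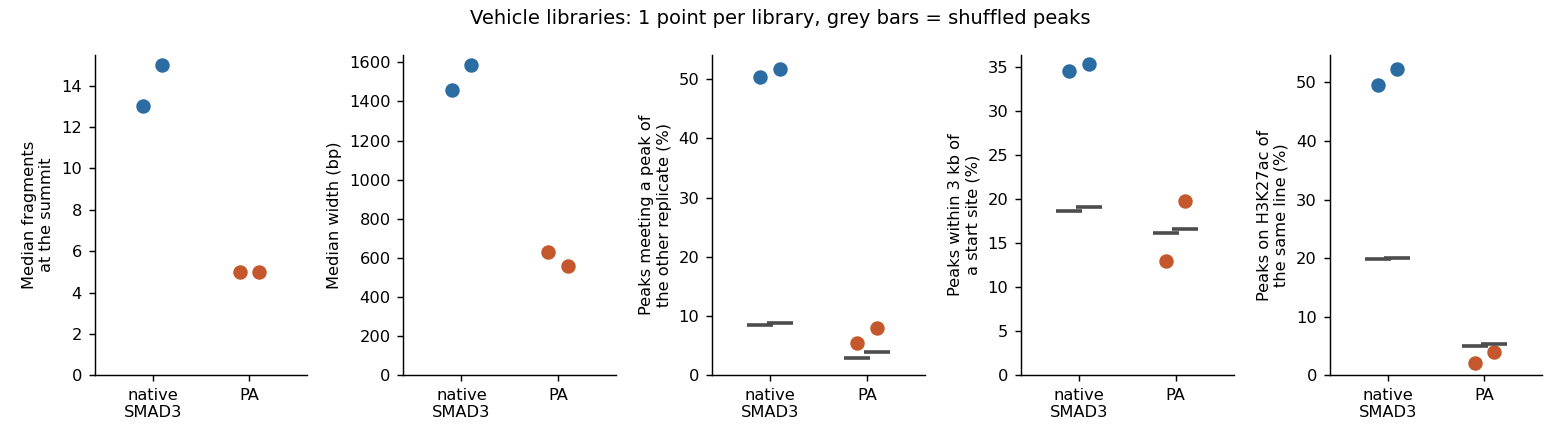
Each point is 1 vehicle library of native SMAD3 (SMAD2-HA/+, blue) or PA (SMAD3-PA/PA, orange); the panels give median fragments at the summit, median width in bp, and the percentage of peaks that met the other replicate, lay within 3 kb of a start site or lay on H3K27ac of the same line. Grey bars are the mean of 20 shuffles of the same peaks. Native libraries had 13 and 15 fragments at the median summit and PA libraries 5 and 5, and PA peaks lay on H3K27ac in 2.17% and 3.97% of cases, under their shuffled level.

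The direct question is how often both measurements of SMAD3 marked the same place. Of the PA regions, 919 of 4319 (21.3%) met a native region, where 100 shuffles within chromosomes gave a mean of 4.41% and a range of 3.77% to 5.35%, a ratio of 4.82. Of the native regions, 650 of 32423 (2.00%) met a PA region, against 0.535% when shuffled (range 0.441% to 0.635%), a ratio of 3.75. Among the 936 overlapping pairs the centres lay a median of 704 bp apart and the PA region was the narrower in 87.4%. Of the PA regions 3000 (69.5%) met no peak of either native list, and of the native regions 27893 (86.0%) met no peak of either PA list. The percentiles of signal in shared pairs were related with a Spearman rho of 0.580 (936 pairs, 0.456 over the 64 free of repeats), as a description across sites that share libraries. Between replicates the same measure was 0.609 over PA regions and 0.875 over native regions. Single lists overlapped far closer to the shuffled level: over the 4 pairs of libraries, 6.76% to 8.01% of PA peaks met a native peak, against 5.88% to 6.002% when shuffled. Scored against the native regions, 4.18% of the peaks of PA replicate 1 (3.81% shuffled) and 5.83% of those of replicate 2 (3.91% shuffled) met one, so that the ratio over shuffled placement fell to 1.10 and 1.49 with 1 PA list. In the other direction, native regions met peaks of PA replicate 1 less often than shuffled regions did (8.12% against 8.85%, a ratio of 0.917) and those of replicate 2 more often (8.26% against 6.75%).

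The overlap was not spread evenly over the genome. To measure how often the sequence of a region recurs, 21 evenly spaced words of 31 bases were taken from each region and counted on both strands of GRCm38. Regions are called mostly repeated where over 50% of their words occur more than once, and free of repeats where none does. Of the PA regions 1451 (33.6%) were mostly repeated, against 15.5% of the shuffled ones. Of the native regions 996 (3.07%) were, against 10.6% when shuffled. The PA set held more repeated sequence than its shuffled set, and the native set less.

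The share of PA regions that met a native region followed this class. In mostly repeated sequence it was 33.1% (480 of 1451; shuffled 4.22%), in partly repeated sequence 21.9% (375 of 1715; shuffled 4.55%), and in regions free of repeats 5.55% (64 of 1153). For the last class shuffled placement gave a mean of 4.30% and a range of 2.86% to 5.72%, which includes the observed value. Restricted to regions free of repeats on both sides, 26 of 1153 PA regions (2.25%) met 1 of 16163 native regions, against 2.15% when shuffled (range 1.39% to 3.56%). These sequences make up 26.7% of PA regions and 49.9% of native regions. Counting all members, overlap of the 2 measurements lay within the range of shuffled placement. Shuffled regions of each class were placed over the whole chromosome, repeated sequence included, so this reference is not matched to repeat-free sequence. Overlap against placement in repeat-free sequence was not tested. Of the 31 repeat-free PA regions on H3K27ac, 22 (71.0%) met a native region, against 5.29% when shuffled over the whole chromosome (range 0% to 19.4%). That reference was not confined to H3K27ac, where native regions are frequent. All 143 PA regions on H3K27ac gave 52.6% when shuffled within H3K27ac, and such a shuffle was not run for the 31. Of the 31, 9 had at least 9 fragments at the summit in both PA replicates.

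**Figure D2:**
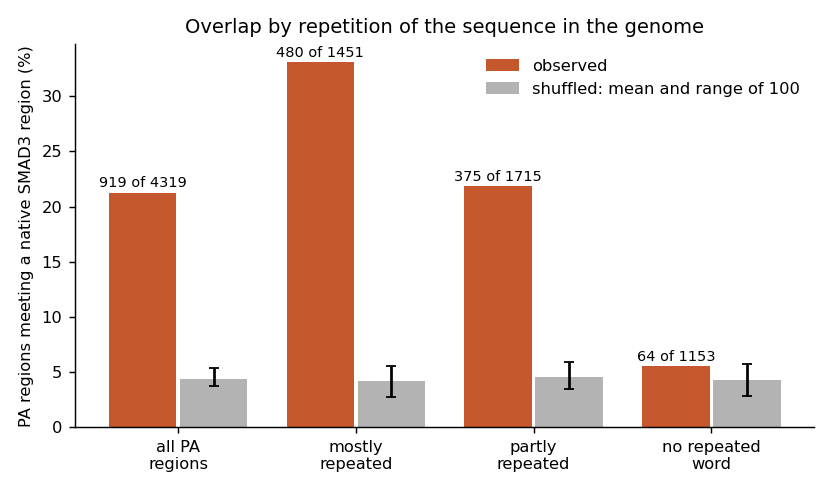
Bars give the percentage of PA regions that met a native SMAD3 region (orange) and the mean of 100 shuffles (grey, with error bars for their lowest and highest value), for all PA regions and by how much of their sequence recurs in GRCm38. Overlap stood at 33.1%, 21.9% and 5.55% in mostly repeated, partly repeated and repeat-free regions, and the last value lies inside its shuffled range.

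The shared regions were deeper than the other PA regions when both PA replicates were required. Shared PA regions had a median percentile of maximum signal within their lists of 97.8, against 53.3 for the other PA regions, and median summits of 11 and 10 fragments in replicates 1 and 2, against 5 and 5. The difference in percentile, 44.5, was 25.8 with the peaks of PA replicate 1 alone, 0 with those of replicate 2 alone and 2.07 in regions free of repeats. Above 4 fragments, overlap rose with the fragment number in the weaker PA replicate: 6.62% of 468 regions with 1 to 3 fragments, 5.17% of 1297 regions with 4 fragments, 11.3% of 932 with 5, 39.95% of 408 with 7 to 8, 76.4% of 127 with 21 to 50, and 63 of 65 regions (96.9%) above 50. Mostly repeated sequence rose alongside, from 14.96% at 4 fragments to 75.6% at 9 to 12, and was 36.9% above 50. In regions free of repeats few members were deep. Of the 20 with at least 9 fragments in both replicates 19 met a native region, and of the 1133 below that 45 did (3.97%).

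**Figure D3:**
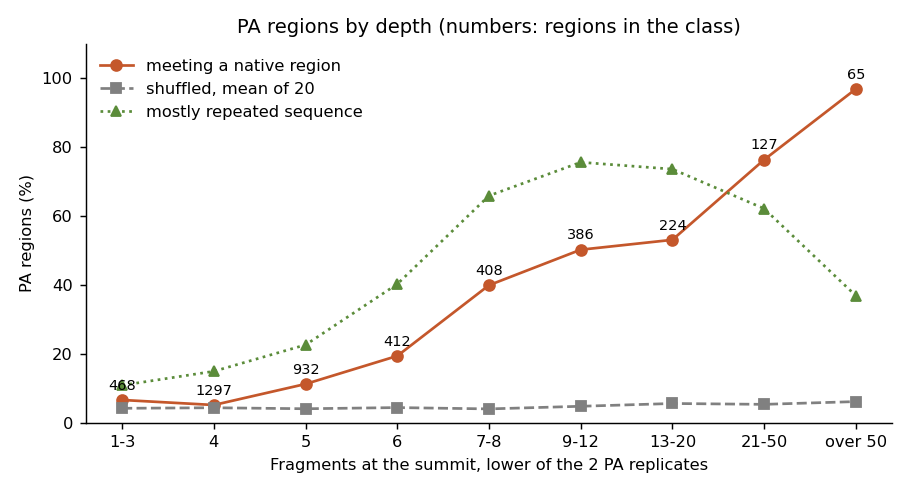
PA regions are grouped by the number of fragments at the summit in the weaker of the 2 PA replicates (horizontal axis); points give the percentage that met a native SMAD3 region (orange), the same for shuffled regions (grey, mean of 20) and the percentage in mostly repeated sequence (green), with the number of regions above each orange point. Overlap was 6.62% at 1 to 3 fragments and rose from 5.17% at 4 to 96.9% above 50, while shuffled overlap stayed between 4.03% and 6.15%.

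Of those 20 deep, repeat-free regions, 5 lay side by side on chromosome 1 from 88243892 to 88311017, over Mroh2a, Hjurp (the chaperone of the centromeric histone CENP-A) and Trpm8 (a cold-sensing channel). Their PA summits held 10 to 17 fragments in replicate 1 and 12 to 19 in replicate 2, and their widths ran from 4768 to 13681 bp. Sfi1, a centrosome gene on chromosome 11, held 3 more, with 43 to 68 fragments in replicate 1 and 9 to 49 in replicate 2. Others lay at Rest (a repressor of neuronal genes, 12 and 10 fragments) and at Peak1 (20 and 27). The 1 region of this kind without a native counterpart was an intron of the potassium channel gene Kcnj6, with 11 and 16 fragments. The 20 regions held peaks in a median of 10 of the 12 other vehicle lists, which comprise SMAD2, HA, SMAD4 and H3K27ac.

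The deepest PA regions were deep with the native antibody too. No blacklist of regions with anomalous signal was applied here, and how many genomic copies feed such a depth was not tested. All 10 PA regions with over 1000 fragments in both replicates met a native region, and 9 of them held peaks in all 12 other vehicle lists, with 10 lists for the region near Pak3. The deepest, on chromosome 2 at 98666139 to 98667366, over the predicted gene Gm10800, had 1373648 and 1231889 fragments in the PA libraries. The Chl1 intron had 58529 and 16520 fragments with PA and 65184 and 67054 with native SMAD3. The Gm10801 side region had 44967 and 13490 with PA and 41128 and 43089 with native SMAD3. The region near Pak3 had 14109 and 8194 with PA and 17892 and 18107 with native SMAD3. In all 3 the PA replicates differed more from each other than the native replicates did.

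The CENP-B box, searched by name on both strands after the windows had been seen, occurred in 4 of these 10 regions, in 5 of the 65 with over 50 fragments and in 2 of the other 4254 PA regions. It occurred in 85 of 32423 native regions (0.262%) and in 17 of 32423 shuffled ones (0.0524%). A match is a description of the letters only. Leaving out the 65 deepest PA regions lowered the overlap from 21.3% to 20.1% and the ratio over shuffled from 4.82 to 4.56, a small part of the count.

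PA regions gathered in a small part of the genome. The 53 intervals of 1 Mb that held at least 10 PA regions contained 1421 of them (32.9%) and 2.89% of the native regions. Inside these intervals 43.4% of PA regions met a native region and 69.2% were mostly repeated, against 10.4% and 16.1% outside. The densest, 15 to 16 Mb of chromosome 5, held 119 PA regions around the Speer4c and Speer4d genes, of which 29.4% met a native region. The interval from 147 to 148 Mb of chromosome 4 held 117 around a cluster of Zfp genes, including Zfp534 and Zfp933, which encode zinc finger proteins, and 73.5% met a native region. On chromosome X the interval from 31 to 32 Mb, with Btbd35f and Spin2 family genes, held 56, of which 85.7% did. In none of the 3 did a PA region lack repeated words. Chromosome X carried 496 PA regions (11.5%) and 911 native regions (2.81%), with 6.28% of the sequence length.

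Seen from the native side, the share of regions with a PA peak did not rise steadily with native signal. Native regions were ranked by their mean percentile of maximum signal and divided into 10 equal classes. The share that met a peak of PA replicate 1 was 9.84% in class 1 (8.94% shuffled) and 6.20% in class 9 (9.61% shuffled). These were the highest and the lowest share over classes 1 to 9. For PA replicate 2 the share lay between 7.002% and 8.91% over the same classes, without such a fall. In class 10 these shares were 11.9% and 12.1%, against 11.2% and 8.88% for shuffled regions of the same widths. Among the 1484 regions of class 10 that were free of repeats, 4.58% met PA replicate 1 (11.3% shuffled) and 8.29% met PA replicate 2 (9.04% shuffled). Shuffled regions of all classes were placed over the whole chromosome, including repeated sequence, where PA regions were frequent. The reference is therefore not matched to native regions, above all to those free of repeats. Whether PA peaks avoided these regions was not tested. The same classes did order active chromatin: H3K27ac of the SMAD3-PA/PA cells covered 29.4% of class 1 and 80.6% of class 10, and start sites 34.0% and 71.7%. The median percentile of native regions with and without PA was 74.1 and 73.4.

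**Figure D4:**
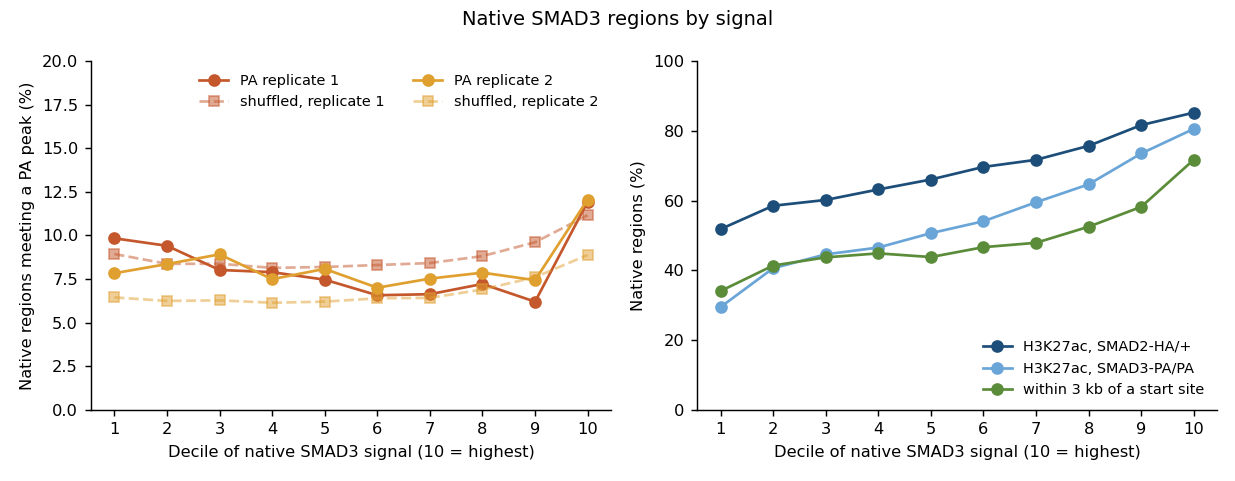
Native SMAD3 regions are ordered by signal into 10 equal classes (horizontal axis, 10 the highest). The left panel gives the percentage that met a peak of PA replicate 1 or 2 (solid) and the mean of 100 shuffles (dashed), and the right panel the percentage on H3K27ac of either line or within 3 kb of a start site. PA peaks met 6.20% to 12.1% of native regions in every class, whereas H3K27ac of the SMAD3-PA/PA cells rose from 29.4% to 80.6%.

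Native regions marked by both antibodies lay mostly outside active chromatin. With H3K27ac of the SMAD2-HA/+ cells as the measure, 24.8% of the 650 shared native regions were covered, against 69.3% of the 31773 others, a difference of -44.5 percentage points, and shuffled native regions reached 20.5%. That difference was -11.6 with the peaks of PA replicate 2 alone, -26.1 with those of replicate 1 alone, -32.1 without native replicate 1, -29.7 without native replicate 2 and -13.4 in regions free of repeats. With H3K27ac of the SMAD3-PA/PA cells the shares were 13.5% and 55.2%. PA regions showed the opposite order, since 10.99% of the shared ones (101 of 919) and 1.24% of the others (42 of 3400) lay on H3K27ac of their own line, with 5.49% when shuffled. This difference, 9.75 points, was 32.1 with the peaks of PA replicate 2 alone and 23.5 with those of replicate 1 alone. For start sites within 3 kb, 31.9% of shared and 20.6% of other PA regions qualified, with 17.7% when shuffled, and 36.6% of shared and 48.7% of other native regions. The difference among PA regions, 11.3 points, was 21.5 with the peaks of PA replicate 2 alone and 18.3 with those of replicate 1 alone.

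The 143 PA regions on H3K27ac stood apart in their overlap. Of these, 101 (70.6%) met a native region. When the same regions were shuffled within the H3K27ac regions of the chromosome, 52.6% did (range 43.4% to 63.6%). Without those above 50 fragments, 70 of 112 (62.5%) did, which equals the highest of the 100 shuffled values, whose mean was 51.4%.

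The sequence at the region centres differed between the 2 measurements in AP-1 letters more than in SMAD letters. In windows of 400 bp, 25.1% of native regions held GTCTAGAC or at least 2 SMAD boxes, against 24.1% of windows 2 kb to either side, a difference of 1.00 percentage point. PA regions held them in 24.8%, against 21.7% at the flanks, a difference of 3.09. That difference was 0.915 in windows of 200 bp, 5.84 with the peaks of PA replicate 2 alone and -1.01 with those of replicate 1 alone. The palindrome GTCTAGAC by itself was rare, in 0.426% of native regions (0.319% at the flanks) and 0.347% of PA regions (0.440% at the flanks). The AP-1 site TGACTCA or its reverse complement TGAGTCA, a motif added after the data had been seen, occurred in 14.2% of native regions against 6.90% at the flanks. In PA regions it occurred in 5.97%, against 5.94% at the flanks. In the 650 native regions shared with PA it occurred in 4.31%, against 5.69% at their flanks.

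Other antibodies used on the same vehicle cells gave a readout that the overlap did not use. Native SMAD3 regions met HA-SMAD2 regions of the same cells in 71.0% (5.96% shuffled) and SMAD2 regions in 47.2% (3.98% shuffled). PA regions met SMAD2 regions of their own cells in 13.5% (0.149% shuffled) and SMAD4 regions in 17.0% (0.930% shuffled). They met SMAD2 regions of the SMAD2-HA/+ cells in 22.3% (2.75% shuffled, a ratio of 8.13). HA regions of those cells were met in 21.02% (4.13% shuffled, a ratio of 5.09). For native SMAD3 regions the share was 21.3% and the ratio 4.82, so overlap of this size was not particular to the native SMAD3 lists. SMAD4 regions, measured in the SMAD3-PA/PA cells, met native SMAD3 regions of the other line in 30.1% of cases (4.94% shuffled) and PA regions of their own line in 6.54% (0.345% shuffled). The SMAD2 antibody was used in both lines, and 35.1% of the 1736 regions of the SMAD3-PA/PA line met SMAD2 regions of the SMAD2-HA/+ line (2.81% shuffled), while 2.57% of the 19389 did in return. The SMAD2 lists of the SMAD3-PA/PA line were unequal, with 78766 peaks in replicate 1 and 23082 in replicate 2. Their median summits held 5 and 3 fragments. The smaller list limits the 1736 regions and every share that rests on them.

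Recurrence again followed sharing on the PA side. Of the shared PA regions 91.9% met a SMAD2 or SMAD4 peak of the same cells, and of the others 33.2%. Of the shared native regions 98.0% met an HA or SMAD2 peak of their cells, and of the others 91.2%. This difference of 6.83 points ran from 0.824 without PA replicate 2 and 3.05 without PA replicate 1 to 24.3 and 27.3 without native replicates 1 and 2. The PA regions free of repeats recurred in 21.1%, and 57.9% of them held no peak in any of the 12 other vehicle lists, against 3.32% of native regions free of repeats. After GDF9, peaks with the same antibody were met by 91.7% of shared and 36.2% of other PA regions, and by 96.6% of shared and 86.8% of other native regions. GDF9 lists compared in the same way gave 14.2% of 9672 PA regions on 26154 native regions, against 3.38% when shuffled.

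Promoters were then compared gene by gene, with a promoter taken as 3 kb to either side of a start site of 21911 protein-coding genes. Native SMAD3 regions lay at 11838 promoters, 54% of all, and PA regions at 342, 1.56% of all. Both lay at 163, which is 0.744% of all genes, 47.7% of the PA genes and 1.38% of the native genes. The share of PA genes with native SMAD3 differed from the share of all genes by -6.37 percentage points. That value was 0.0118 with the peaks of PA replicate 2 alone and -2.73 without native replicate 1. At 86 of the 163 the 2 regions overlapped directly, and at 15 of them a PA region free of repeats was present too.

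Across 203 genes in 11 lists that describe the pathway and the tissue, native SMAD3 regions lay at 155 promoters and PA regions at 1. The share with a native region was 76.4%, beside 54% of all genes, and PA regions lay at 1.56% of all genes. Single PA peaks were found at 29 of these promoters in replicate 1 and 52 in replicate 2, or 14.3% and 25.6% beside the 17.7% and 24.5% of all genes. At 6 genes both PA lists had a peak: Nedd9, Smad4, Tgfbr3, Cyp19a1, Cyp3a11 and Snap25. Values below are the deepest peak within 3 kb. Over all 203 genes the deepest PA peak had 8 fragments in replicate 1 and 9 in replicate 2. At the 155 promoters with a native region the median deepest native peak had 35 and 49 fragments.

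Feedback and early target genes of SMAD2/3 had a native region at 22 of 26 promoters, beside 54% of all genes. They had a PA region at 0, which is near the 1.56% of all genes for a list of this size, as it is for the other lists with 0. Skil, which encodes the SMAD repressor SnoN, had 178 and 216 native fragments and no PA peak. Smad7, the inhibitory SMAD, had 95 and 117 with no PA peak, and Pmepa1, which blocks receptor access to SMADs, had 73 and 121 with none. Single PA peaks lay at 4 of the 26 promoters in replicate 1 and at 8 in replicate 2. The 4 members without a native region were Tgfbi, Lefty1, Lefty2 and Nodal, none of which exceeded 13.3 normalized counts of RNA in either vehicle library.

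SMAD and receptor genes had a native region at 17 of 20 promoters, again beside 54%. Tgfbr1, the type I TGF-beta receptor, had 111 and 183 native fragments and no PA peak. Smad3 itself had 46 and 57 native fragments and a PA peak of 4 fragments in replicate 1 alone. Tgfbr3, the co-receptor betaglycan, had peaks in all 4 lists, with 12 and 14 native and 6 and 7 PA fragments, but its PA peaks did not overlap each other. Smad4, the common partner SMAD, also had peaks in all 4 lists, with 20 and 27 native and 4 and 4 PA fragments, and no PA region.

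Granulosa cell markers had a native region at 13 of 17 promoters, beside 54% of all genes. Esr2, the estrogen receptor of granulosa cells, had 122 and 99 native fragments and no PA peak. Gata4, a transcription factor of the gonad, had 72 and 97 native fragments and 7 PA fragments in replicate 2 alone. PA replicate 2 had a peak at 9 of these 17 promoters, beside 24.5% of all genes, and replicate 1 at 2, beside 17.7%. Foxl2, which maintains granulosa identity, was among the 9, with 4 PA fragments in replicate 2 beside 42 and 61 native fragments.

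Cumulus expansion and ovulation genes had a native region at 14 of 17 promoters and steroid synthesis genes at 13 of 15, beside 54% of all genes. Tnfaip6 had 33 and 38 native fragments and no PA peak, and its RNA level was 63.2 and 66.5 normalized counts. Plau, the urokinase gene, had 17 and 14 native fragments and a PA peak of 5 in replicate 2. Its native window at chr14:20833608-20833757 holds 5 SMAD boxes in capitals, with overlapping copies run together.

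Plau, native region: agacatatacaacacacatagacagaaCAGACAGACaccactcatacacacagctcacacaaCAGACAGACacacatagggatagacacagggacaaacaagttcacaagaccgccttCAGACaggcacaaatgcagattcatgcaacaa

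Fdx1, the ferredoxin that feeds electrons to steroidogenic cytochromes, had 104 and 136 native fragments and 6 PA fragments in replicate 1 alone. Star, which moves cholesterol into mitochondria, had 76 and 90 native fragments and no PA peak. Lama2, a laminin chain, had no peak in any of the 4 lists within 3 kb, with RNA at 25.3 and 27.5 normalized counts.

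AP-1 and immediate early genes, YAP targets and housekeeping genes had a native region at every promoter listed, 21 of 21, 14 of 14 and 12 of 12. Fos had 127 and 150 native fragments and no PA peak, and Jun 92 and 138 with none. Single PA peaks lay at 2 of the 21 AP-1 and immediate early genes in replicate 1 and at 4 in replicate 2. Among these were Atf3, with 7 fragments in replicate 1, and Ier3, with 7 in replicate 2. YAP targets had such peaks at 0 and 2 promoters and housekeeping genes at 1 and 4. Amotl2, a YAP target that restrains YAP, had 61 and 100 native fragments and no PA peak. Extracellular matrix genes had a native region at 15 of 21. Among markers of other ovarian cells native regions lay at 9 of 25, and among genes of liver and neurons at 5 of 15, both below the 54% of all genes.

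Snap25, a synaptic fusion protein of neurons, was the gene of these lists with a region of both antibodies. Its native peaks had 11 and 29 fragments and its PA peaks 5 and 5. The native region (chr2:136711722-136714768) and the PA region (chr2:136715579-136716244) did not overlap, and its RNA was at 1.15 and 2.66 normalized counts.

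**Figure D5:**
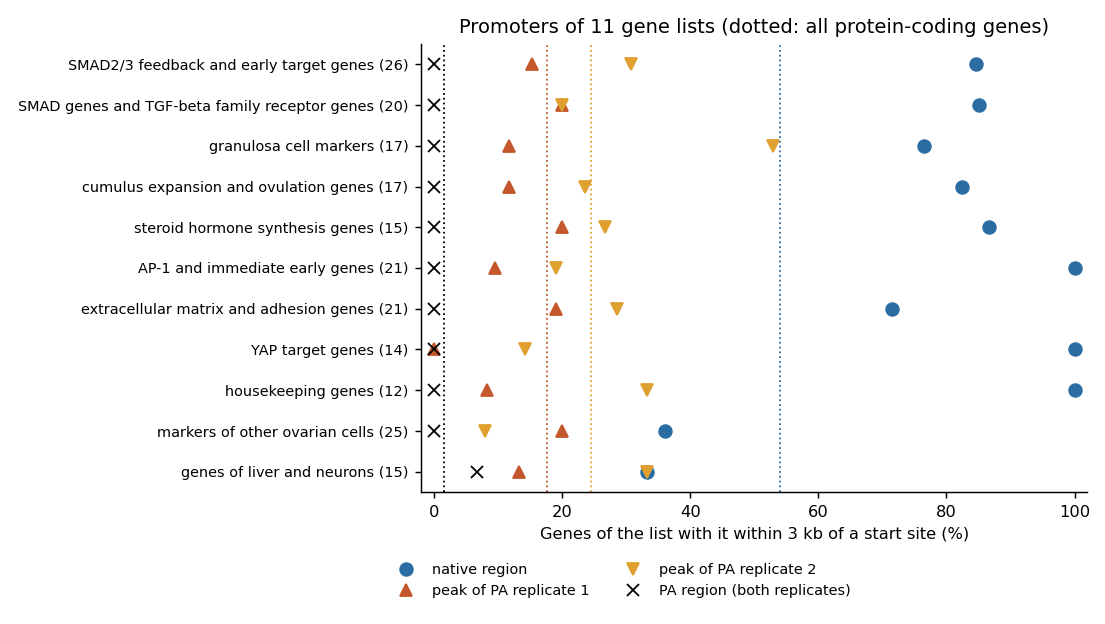
For each of 11 gene lists (number of genes in brackets), symbols give the percentage of promoters within 3 kb of a native SMAD3 region, of a peak of PA replicate 1 or 2, or of a PA region with both replicates; dotted lines in the same colours give all 21911 protein-coding genes, at 54%, 17.7%, 24.5% and 1.56%. Native regions lay at 155 of 203 genes and PA regions at 1.

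The 15 genes with directly overlapping regions and a repeat-free PA region were listed after their values were seen. Hjurp, Mroh2a, Trpm8 and Sfi1, named above, were among them. Elsewhere, Igfbp7, an insulin-like growth factor binding protein, had 16 and 17 native fragments and 8 and 6 PA fragments, at chr5:77406220-77406800. Ogt, the enzyme that adds O-GlcNAc to proteins, had 19 and 24 native and 5 and 7 PA fragments. Tgfbrap1, a TGF-beta receptor associated protein, had 26 and 20 native and 5 and 5 PA fragments. Its start region is shared with the gene AI597479. In all 3 genes the PA summits held 5 to 8 fragments.

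RNA of the vehicle cells was set beside the promoter classes per kb of exon, since lengths differ between genes. RNA values were matched for 19175 of 21911 genes. Genes with native SMAD3 alone had a median of 71.3 and 71.5 normalized counts per kb, and 90.3% reached 10 normalized counts. Genes with both antibodies had 12.9 and 13.3 per kb, and 61.9% reached that level. Genes with PA alone had a median of 0 and 0, and 16.9% reached it, below the 22.4% of the 7779 matched genes with neither. H3K27ac of the SMAD3-PA/PA cells lay at 76.4% of promoters with native SMAD3 alone, 50.9% with both, 2.23% with PA alone and 5.35% with neither. The RNA-seq cells were of the SMAD3-PA/PA line, the line of the PA libraries.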

How the data were processed

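Members, gene lists and tests were chosen with earlier results of these data known. Per the labels and the study's methods, CUT&RUN reads were aligned with Bowtie2 to mm10 and to the E. coli spike-in. Uniquely mapped reads were kept, so that repeated sequence could be counted unevenly. Coverage was scaled by 100000 over the number of E. coli fragments, peaks were called with SEACR for each library (stringent lists), and HOMER was used downstream. The deposited peak lists give each peak's total and maximum signal (coverage, in these spike-in units), and the authors also deposited RNA signal as normalized counts (STAR 2.7.11b, featureCounts 2.1.1, DESeq2 1.48.2). From these, peaks on chromosomes 1 to 19, X and Y were joined into regions, compared with 100 shuffles within chromosomes (20 for single libraries, other antibodies, depth classes, H3K27ac and promoter shares and some alternatives; 1 for word repetition and the CENP-B box) and placed on GENCODE M21. No p was computed over regions or genes. Fragment numbers are depths at the summit, and library totals were unknown. Precision is limited by 2 lists per antibody and by summits of about 5 fragments for PA.

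Shuffled regions could land on unsequenced bases and on repeated sequence, also when the regions shuffled were free of repeats. Word repetition was read from the 4191 PA and 31542 native shuffled regions with sequence. Genes were named from 11 lists, with values for members that had regions of both antibodies and for up to 4 others per list. Regions were named as the 5 shared, 3 native and 3 PA regions of highest percentile with under 50% soft-masked bases. The counts by word repetition, by fragment depth and by 1-Mb interval, the AP-1 and CENP-B motifs and the deep repeat-free regions were chosen after seeing the data. Python 3.11.15, numpy 2.4.6, pandas 2.3.3, scipy 1.17.1 and pysam 0.24.0 were used, and the overlap code was tested on simulated intervals. Of the RNA sample columns, 2 more were not used. Alternatives are given in the closing section.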

Additional observations from a re-analysis of the deposited data

How the results depend on the processing

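No paired analysis was possible because the results come from no fitted test and the replicate numbers tie no native SMAD3 library to a PA library. Alternatives covered 14 results. Of their values 28 kept their direction and moved by less than 1 SD, 64 moved by more and 6 reversed, as given below. That SD came from 2 values, 1 from the lists numbered 1 and 1 from those numbered 2, although these numbers tie no libraries together. For the PA percentile difference it was 0, so any change there counted as moved. The counts therefore do not measure the spread between replicates. Leaving out 1 of the 4 lists in turn gave a ratio over shuffled of 1.10 to 3.56 for PA regions on native regions and 0.917 to 3.20 for the reverse, lowest without PA replicate 2. The same gave 520 to 1585 bp for the width difference, -1.79 to 19.8 and 0 to 43.7 for the native and PA percentile differences of shared regions (main values 0.717 and 44.5), and -32.1 to -11.6 and 7.73 to 32.1 percentage points for the H3K27ac differences of native and PA regions (main values -44.5 and 9.75). It gave 10.2 to 21.5 points for promoters (main 11.3), -8.09 to 0.0118 for genes (reversed without PA replicate 1), 0.952 to 1.07 and -1.01 to 5.84 for SMAD letters in native and PA regions, 41.6 to 53.6 (main 58.7) and 0.824 to 27.3 (main 6.83) for recurrence of PA and native regions, and 41.9 to 64.8 (main 45.0) for the share of expressed genes with both antibodies minus PA alone. In every such case the cause was not tested, and a single list holds peaks of 1 replicate only.

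Requiring 50% of both regions gave ratios of 13.7 and 11.6 for PA and native regions and a PA percentile difference of 37.2. The 50% strongest peaks gave 7.60, 6.10 and 21.3. Central 200 bp gave ratios of 11.9 and 11.3, and shuffling on or off H3K27ac 5.47 and 4.67. Total signal gave percentile differences of 12.4 (native) and 39.7 (PA), and 4 width classes gave -1.17 (native, reversed) and 35.0 (PA). Promoters of 1 kb gave 7.26 points and a minimum of 1 normalized count 43.9 points. Windows of 200 bp gave 0.642 points for SMAD letters in native regions (main 1.00) and 0.915 in PA regions (main 3.09). Added after seeing the data, regions free of repeats gave ratios of 1.05 and 1.13, percentile differences of -8.10 (native, reversed) and 2.07 (PA), H3K27ac differences of -13.4 and 28.7 and a promoter difference of 21.3. Outside the 1-Mb intervals dense in PA regions the ratios were 2.54 and 2.30, the percentile differences 15.1 and 45.1, and the PA H3K27ac difference 22.01. PA regions of at most 50 fragments gave 4.56 and a percentile difference of 43.8. Ties among PA summits of about 5 fragments limit the PA percentiles.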
